A study of Mus musculus with 6 samples.

Results

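ATP-binding cassette (ABC) transporters were examined in damaged hepatocytes (dHeps) cultured with solvent or with cocktails of small molecules. The members were the genes of the deposited count table whose symbols follow the Abca to Abcg numbering, and they were 50 of the 52323 genes listed, with 16 Abca, 10 Abcb, 10 Abcc, 4 Abcd, 1 Abce, 3 Abcf and 6 Abcg genes. Bulk RNA-seq was available for 6 libraries, 2 per group, all from dHeps kept for 16 days in serum-free Hepatocyte Maintenance Medium. The cells of every group came by collagenase perfusion from livers of mice injured with carbon tetrachloride (CCl4) for 12 weeks. The mice carried AAV-TBG-Cre and Rosa-LSL-tdTomato, in which a virus delivers Cre from a hepatocyte-specific promoter and Cre switches on a red marker in hepatocytes. The study's methods give an age of 8 to 10 weeks for virus injection and for the start of injury. Cells were taken after the 12 weeks of CCl4, at an age that is not stated. The first group received DMSO, the solvent. The second received 3C, a cocktail of CID755673 at 50 µM, which blocks protein kinase D, GSK429286A at 2 µM, which blocks the kinase ROCK, and ETC-1002 at 5 µM. The third received 5C, which added salidroside at 5 µM and forskolin at 2 µM, which activates adenylate cyclase. The study's methods describe replicates as biologically separate, while the labels do not say which animal or culture each library came from, so the p-values measure the spread between these libraries, whose source was not checked.

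ABC proteins use ATP to move substrates across membranes. In hepatocytes, transporters of the canalicular membrane secrete bile salts, phospholipid, sterols and conjugates into bile, multidrug resistance proteins (the Abcc subfamily) of the basolateral membrane return conjugates and bile acids to blood, and Abca and Abcg proteins hand cholesterol to lipoproteins. Other members work inside the cell, in peroxisomes, mitochondria and lysosomes, while Abce and Abcf proteins cross no membrane and act on ribosomes and translation.

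Letters in front of RefSeq start sites are shown for some of the members. Abcb11 was higher in 5C than in 3C, Abcg5 and Abcg8 share the stretch between their starts, and Abcc2 and Abcc4 were both lower in 5C than in 3C. Abcg2 holds the element that cAMP signalling acts through, and its difference between 5C and 3C had an adjusted p of 0.321 by edgeR. Each line gives 30 bases, 5′ to 3′ on the strand of the gene, around 1 match in the 250 bases before a RefSeq start (promoter table of GRCm38.p6). Capitals mark a nuclear receptor half-site (TGACCT) in Abcb11, GATA sites (AGATAA, here read from the other strand) before Abcg8, the core of the antioxidant response element (TGACNNNGC) in Abcc2 and, from the other strand, in Abcc4, and the cAMP response element (TGACGTCA) in Abcg2.
Abcb11: actttaggccatTGACCTataagcaaatag
Abcg8, farther site: ccaacgatgccaTTATCTgatgtaccttta
Abcg8, nearer site: gccagagtgtccTTATCTcgacaataggca
Abcc2: ctcactgggaTGACATAGCattcatctagc
Abcc4: gccccgagagGCGGGGTCAgggcgggccgg
Abcg2: gcggcgcgagcTGACGTCAcggcggtcggg
By exact match to GRCm39 these lie at chr2:69172999-69173028 (minus strand), chr17:84990444-84990473 and chr17:84990474-84990503 (plus), chr19:43770639-43770668 (plus), chr14:118943637-118943666 (minus) and chr6:58617483-58617512 (plus). The first capital stands 56 bases before the start in Abcb11, 93 and 63 before that of Abcg8, 98 in Abcc2, 25 in Abcc4 and 37 in Abcg2. Between the RefSeq starts of Abcg5 and Abcg8, which are transcribed away from each other, are 109 bases, so both GATA matches also lie before the start of Abcg5. All 6 stretches lie inside the gene spans of the GENCODE annotation, which start farther upstream than these RefSeq starts, so in that annotation they are not upstream of the gene.

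Of the 50 members, 38 had a RefSeq promoter of 300 bases in the table (45 promoters). Both strands were searched. The cAMP response element occurred in Abcg2 and Abce1 and in 1.79% of all 32851 promoters. The antioxidant core occurred in 5 members (Abca8b, Abcb1a, Abcc10, Abcc2 and Abcc4) and in 12.4% of all promoters. The half-site and the GATA site were added after the sequences had been seen. The half-site occurred in 5 members (Abcb11, Abcb6, Abcc10, Abcc2 and Abcg2) and in 16.3% of promoters. The GATA site occurred in 6 members (Abca12, Abca14, Abca16, Abcf2, Abcg5 and Abcg8) and in 11.2% of promoters. A sterol element core (TCACNCCAC) occurred in Abca3 and in 1.24% of promoters, and no member window held the cores of the FXR inverted repeat (GTCANTGAC, 0.387% of promoters) or of an HNF1 site (GTTAATNAT, 0.801%). These matches describe letters and are not evidence of binding.

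Total estimated counts were 65916573 to 69245895 per library, and the members took 0.233% to 0.304% of them. A gene is reported in CPM (its count scaled to the library total) for comparisons between groups and in FPKM, which is also per length, for comparisons between genes. The hepatocyte identity of the cultures was checked with marker genes. The summed level of 10 hepatocyte markers, Alb among them, was 2140 to 2270 CPM in DMSO, 10034 to 10603 in 3C and 10006 to 14595 in 5C. Against DMSO, 9 of the 10 were called higher in each cocktail (7.3% of all genes in 5C and 5.83% in 3C). The remaining marker passed lower (13.1% and 11.8% of all genes). The sum of 14 macrophage markers was 12441 to 13359 CPM in DMSO, 4229 to 4265 in 3C and 2850 to 2862 in 5C. In each cocktail, 12 of the 14 were called lower (4.42% of all genes in 5C and 3.62% in 3C). The sums for endothelial markers (372 to 398, 120 to 154 and 175 to 275 CPM in the same order), stellate and fibroblast markers (5698 to 6596, 4921 to 4954 and 7452 to 8009), cholangiocyte markers (2945 to 3438, 3633 to 3821 and 2440 to 2752) and mesothelial markers (981 to 1173, 1292 to 1397 and 2155 to 2253) also differed between groups. Within the endothelial, cholangiocyte and stellate lists, genes moved in both directions in the comparisons that follow. All 6 mesothelial markers passed higher in 5C against DMSO (15.6% of all genes, median log2 fold change 1.19). In 3C against DMSO, 2 of the 6 passed higher (12.7% of all genes) and none lower. In 5C against DMSO, 5 of 9 tested endothelial markers were called higher and 2 lower (7.3% and 4.42% of all genes). Their median log2 fold change was 1.31 although their sum was lower. In the same comparison, 4 of 8 cholangiocyte markers passed higher and 1 lower (15.6% and 13.1% of all genes, median 0.72) although their sum was lower. In 3C against DMSO, 6 of 11 stellate and fibroblast markers passed higher and 4 lower (12.7% and 11.8% of all genes, median 0.72) beside a lower sum. Of the listed markers, only Clec4g was at or under the detection floor in all 6 libraries. In such bulk RNA, fewer cells of a type and less RNA per cell cannot be told apart, and the part of these other cells in the results on ABC genes was not tested.

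Of the 50 members, 45 were expressed enough to be tested. The other 5 were Abca13, Abca15, Abca16, Abca17 and Abcb5, of which Abcb5 had no count in any library and Abca13 and Abca15 stayed at or under the floor of 12 estimated counts in all 6. A gene passed where the adjusted p of the quasi-likelihood test of edgeR was under 0.05, whatever its fold change. It was called where its absolute log2 fold change was also above 1, so every called gene also passed. Against DMSO, 11 of 45 members were called in 5C, 8 higher and 3 lower, beside 11.7% of all 19135 genes tested (7.3% higher and 4.42% lower). In 3C, 11 were called against DMSO, 8 higher and 3 lower, beside 9.45% of all genes (5.83% higher and 3.62% lower). Between 5C and 3C, 4 were called, 1 higher and 3 lower in 5C, beside 3.01% (2.16% higher and 0.852% lower). With the called ones included, 27 members passed in 5C against DMSO (28.7% of all genes), 23 in 3C against DMSO (24.5%) and 11 between 5C and 3C (12.7%). Those counts depend on single libraries: without 5C replicate 2 the 27 became 17, and without 3C replicate 1 the 11 became 4. The DMSO libraries are shared by both cocktail comparisons, whose fold changes are therefore not independent. The groups did not overlap in 34 members for 5C against DMSO (63.1% of all genes), in 36 for 3C against DMSO (61.3%) and in 29 for 5C against 3C (58.0%).

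Per length, the order of the members differed between groups. Abcc4, an exporter of cyclic nucleotides and conjugates, had the highest level of all members in DMSO (52.3 ± 1.21 FPKM, SD, n = 2) and in 3C (64.4 ± 7.77 FPKM) and ranked 8 in 5C (18.1 ± 6.03 FPKM). In 5C the highest levels were those of the peroxisomal Abcd3 (37.6 ± 0.574 FPKM), Abcf1 (34.6 ± 2.15 FPKM) and the drug exporter Abcb1b (32.9 ± 4.88 FPKM), of which Abcf1 and Abcb1b do not differ beyond their spread. The bile salt export pump gene Abcb11 ranked 41 in DMSO (0.103 ± 0.0853 FPKM), 40 in 3C (0.263 ± 0.0921 FPKM) and 32 in 5C (2.86 ± 0.297 FPKM). Abcb4 moved from rank 30 to 21 and 13.

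**Figure D1:**
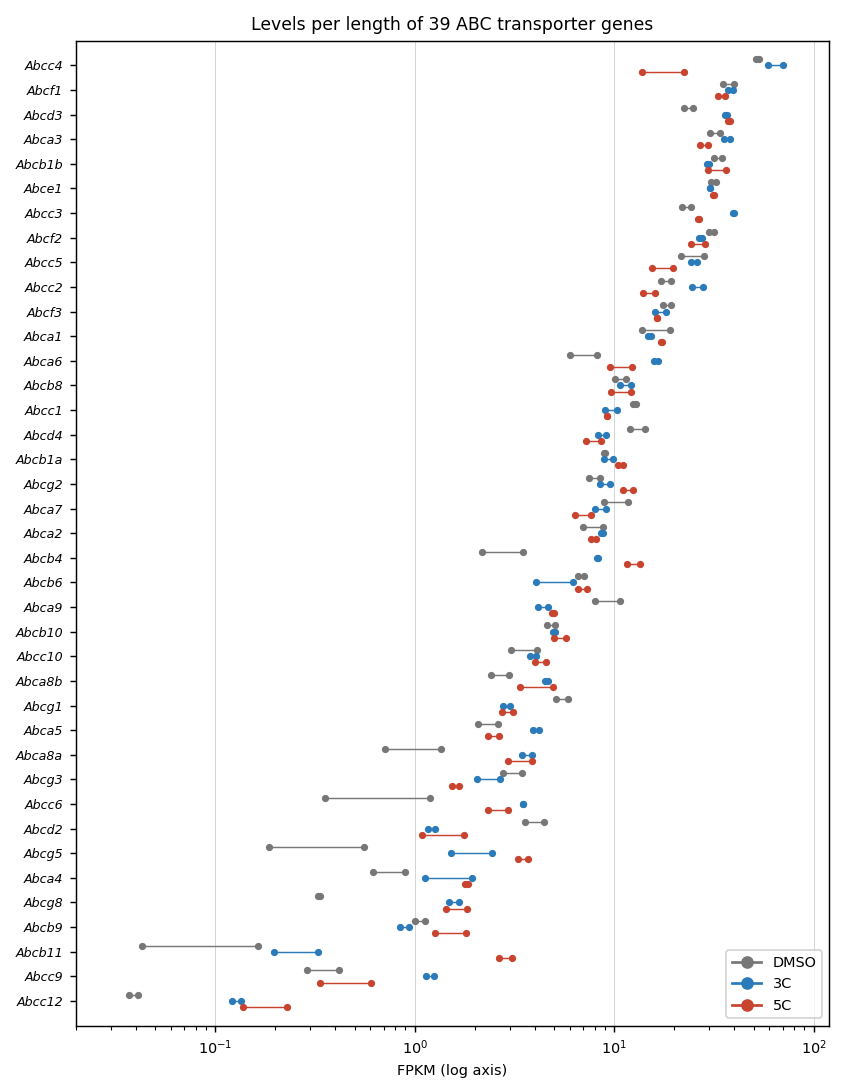
Level per length (FPKM, log axis) of 39 ABC transporter genes with a mean of at least 0.1 FPKM, ordered by their mean. Each point is a library and a line joins both libraries of a group; Abcc4 has the highest points in DMSO and 3C, and Abcb11, Abcg5 and Abcb4 lie to the right in 5C of where they lie in DMSO.

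The canalicular transporters included the largest rises of the tested members. The bile salt export pump Abcb11, the phospholipid floppase Abcb4 and Abcg5 and Abcg8, which together form the exporter of plant sterols and cholesterol, were called higher in 5C than in DMSO, and Abcb4, Abcg5 and Abcg8 also in 3C. Of these 4 genes, only Abcb11 was called between 5C and 3C. Of the 8 canalicular members, 6 passed higher and 1 lower in 5C against DMSO (15.6% and 13.1% of all genes), 5 passed higher in 3C (12.7%), and 2 passed higher and 1 lower between 5C and 3C (7.33% and 5.33%). Their median log2 fold changes were 1.27, 0.91 and 0.23, beside 0.0041, 0.0088 and -0.011 over all genes.

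Abcb11 (chromosome 2, 69068544 to 69173315, GRCm39) stood at 0.893 and 0.258 CPM in the DMSO libraries, 1.10 and 1.83 CPM in 3C and 16.4 and 14.6 CPM in 5C. Both 5C libraries lay above all others, and the groups did not overlap in any comparison. The log2 fold change was 4.77 in 5C against DMSO (SE 0.53, adjusted p = 0.000598 by edgeR), a 27.2-fold difference, and 3.45 in 5C against 3C (SE 0.49, adjusted p = 0.00538). In 3C against DMSO it was 1.32 (SE 0.51) with an adjusted p of 0.117, which became 0.00372 without DMSO replicate 1 and 0.0203 with DESeq2. The lower DMSO library held 17 estimated counts, close to the floor, so the size of the rise from DMSO is loosely known, and it ranged from 4.15 to 5.91 on the log2 scale when 1 library was left out.

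Abcb4 (chromosome 5, 8943604 to 9011999) stood at 14.6 and 9.89 CPM in DMSO, 37.4 and 35.6 in 3C and 50.4 and 61.1 in 5C. The groups were in the same order in every library. It rose by 1.55 on the log2 scale in 3C (SE 0.18, adjusted p = 0.000439) and by 2.21 in 5C (SE 0.18, adjusted p = 5.34e-05). The further difference of 0.66 between 5C and 3C had an adjusted p of 0.0432, which was 0.19 without 3C replicate 1, 0.227 without 3C replicate 2, 0.0575 without 5C replicate 1 and 0.24 without 5C replicate 2.

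Abcg5 (chromosome 17, 84964851 to 84990494) was measured at 1.41 and 0.47 CPM in DMSO, 6.22 and 3.80 in 3C and 8.33 and 9.75 in 5C. Its neighbour Abcg8 (chromosome 17, 84983730 to 85007765) was measured at 1.13 and 1.40 CPM in DMSO, 6.13 and 5.69 in 3C and 6.66 and 5.95 in 5C. Both partners of the sterol exporter were higher in every cocktail library than in every DMSO library. In 5C the log2 fold change against DMSO was 3.28 for Abcg5 (SE 0.49, adjusted p = 0.00209) and 2.33 for Abcg8 (SE 0.23, adjusted p = 7.56e-05). In 3C it was 2.38 for Abcg5 (SE 0.48, adjusted p = 0.00997, and 0.0546 without 3C replicate 1) and 2.19 for Abcg8 (SE 0.23, adjusted p = 0.000142). Between 5C and 3C neither passed (0.90 with SE 0.44 for Abcg5 and 0.14 with SE 0.21 for Abcg8). The GATA matches printed above lie in the 109 bases that both genes have in front of their RefSeq starts.

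Abcc2, which exports bilirubin and glutathione conjugates into bile, followed another course. It stood at 162 and 153 CPM in DMSO, 244 and 211 in 3C and 134 and 123 in 5C. The 3C libraries were above and the 5C libraries below both DMSO libraries. The log2 fold change was 0.50 in 3C against DMSO (SE 0.08, adjusted p = 0.0023), -0.77 in 5C against 3C (SE 0.08, adjusted p = 0.000806) and -0.27 in 5C against DMSO (SE 0.08, adjusted p = 0.0381). The last value no longer passed without DMSO replicate 1 (adjusted p = 0.126), DMSO replicate 2 (0.0547), 5C replicate 1 (0.0651) or 5C replicate 2 (0.18), and on the FPKM scale.

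Abcg2, an exporter of urate, porphyrins and drugs, stood at 29.3 and 27.9 CPM in DMSO, 40.6 and 42.5 in 3C and 33.2 and 37.6 in 5C. The groups did not overlap. It passed in 3C (log2 fold change 0.51, SE 0.10, adjusted p = 0.00503) and in 5C (0.33, SE 0.10, adjusted p = 0.0343) and did not pass between 5C and 3C (-0.18, SE 0.10, adjusted p = 0.321). On the log2(FPKM + 1) scale the 3C difference was 0.15 with an adjusted p of 0.413, and 5C had the highest FPKM (11.8 ± 1.02, beside 9.01 ± 0.68 in 3C and 8.001 ± 0.707 in DMSO). The value in 3C no longer passed without 3C replicate 2 (adjusted p = 0.0514), and that in 5C without any 1 library other than 5C replicate 1 (adjusted p from 0.0661 to 0.216).

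The drug exporters Abcb1a and Abcb1b lie beside Abcb4 on chromosome 5, and 16.7% of the 50-base words of the Abcb1a transcript also occur in Abcb1b, so their counts are less certain. Abcb1a stood at 47.5 and 48.5 CPM in DMSO, 49.6 and 53.9 in 3C and 56.5 and 62.5 in 5C, with a log2 fold change of 0.33 in 5C against DMSO (SE 0.09, adjusted p = 0.0211, and 0.0845 without DMSO replicate 1 or 0.143 without 5C replicate 2). Abcb1b stood at 159 and 153 CPM in DMSO, 145 and 137 in 3C and 170 and 142 in 5C and passed in no comparison. Its 5C libraries enclosed the range of the DMSO libraries.

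**Figure D2:**
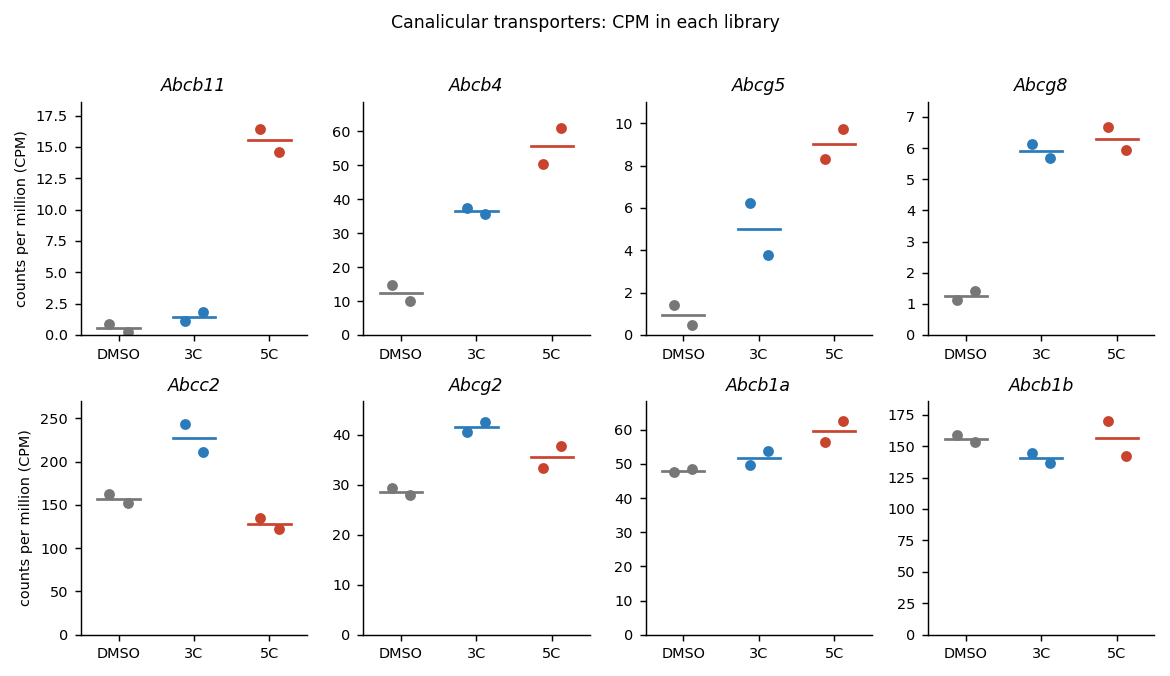
CPM (linear axis from 0) of the 8 canalicular transporters in each library of DMSO, 3C and 5C; points are libraries and horizontal lines are means of 2 libraries. Abcb11 is at 14.6 and 16.4 CPM in 5C and under 2 CPM elsewhere, Abcb4, Abcg5 and Abcg8 are higher in both cocktails, and Abcc2 is highest in 3C and lowest in 5C.

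Genes that act beside these pumps were read from lists. Of 15 genes of the canalicular membrane and of trafficking to it, 2 were called higher in each cocktail against DMSO (7.3% of all genes in 5C and 5.83% in 3C) and none lower, and 1 was called higher in 5C than in 3C (2.16%), counts close to those shares of 15 genes. Pdzk1, a scaffold that binds transporters at the apical membrane, stood at 0.789 and 0.743 CPM in DMSO, 6.16 and 6.45 in 3C and 11.9 and 15.5 in 5C, a log2 fold change of 1.17 between 5C and 3C (SE 0.19, adjusted p = 0.0049). Atp8b1, a phospholipid flippase of the canaliculus, stood at 10.6 and 8.31, 20.5 and 19.3, and 19.0 and 22.0 CPM in the same order. Of 7 genes of bile acid uptake and basolateral efflux, 4 were called higher in 5C and 3 in 3C, beside the same shares of all genes. Slc10a1, the sodium-dependent bile acid importer, went from 0.223 and 0.091 CPM in DMSO to 1.01 and 1.14 in 3C and 3.37 and 3.73 in 5C, and Slco1a4, an importer of organic anions, from 0.328 and 0.273 to 3.73 and 4.41 and then 18.9 and 19.1. Both were also called between 5C and 3C, with log2 fold changes of 1.77 (SE 0.39, adjusted p = 0.0179) and 2.27 (SE 0.18, adjusted p = 0.000242). The importer of bile acids into hepatocytes and their export pump Abcb11 were thus both higher in 5C than in 3C. Of 10 hepatocyte markers, 9 were higher in each cocktail than in DMSO too, and their part in these rises was not tested.

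Among the other Abcc exporters, the direction differed by gene. Abcc6 and Abcc12 were called higher in both cocktails, Abcc4 was called lower in 5C, Abcc3 was higher in 3C than in both other groups, and Abcc1 and Abcc5 were modestly lower in 5C than in DMSO. Of the 7 members, 3 passed higher and 3 lower in 5C against DMSO (15.6% and 13.1% of all genes), 3 higher and 1 lower in 3C (12.7% and 11.8%), and none higher and 3 lower between 5C and 3C (7.33% and 5.33%). Their median log2 fold changes were 0.23, 0.29 and -0.20, beside 0.0041, 0.0088 and -0.011 over all genes.

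Abcc4 (chromosome 14, 118720103 to 118943924), which carries cyclic nucleotides and bile acid conjugates across the basolateral membrane, stood at 314 and 340 CPM in DMSO, 449 and 371 in 3C and 139 and 88.7 in 5C. Both 5C libraries lay below every other library. The log2 fold change was -1.80 in 5C against 3C (SE 0.22, adjusted p = 0.00543) and -1.51 in 5C against DMSO (SE 0.22, adjusted p = 0.00393), the latter with an adjusted p of 0.0515 without DMSO replicate 1 and 0.0637 without DMSO replicate 2. In 3C against DMSO it was 0.29 (SE 0.21, adjusted p = 0.409). Of the 5 members with the antioxidant core, Abcc2 and Abcc4 passed lower in 5C against 3C (5.33% of all genes). The others with the core, Abcb1a (0.25), Abcc10 (0.12) and Abca8b (-0.10, log2 fold changes), did not pass. A relation of the core to these values was not tested.

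Abcc3, a basolateral exporter of glucuronides that hepatocytes raise in cholestasis, stood at 129 and 122 CPM in DMSO, 221 and 218 in 3C and 144 and 147 in 5C. The 3C libraries were the highest and the replicates close. It rose by 0.77 in 3C against DMSO (SE 0.07, adjusted p = 3.96e-05) and fell by 0.54 from 3C to 5C (SE 0.06, adjusted p = 0.00119). The difference of 0.23 between 5C and DMSO (SE 0.06, adjusted p = 0.0264) no longer passed without any 1 library other than DMSO replicate 1 (adjusted p from 0.0518 to 0.12). Abcc2, Abcc3 and Abcc4 thus all had lower values in 5C than in 3C, and of the 3 only Abcc4 was called.

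Abcc6, the hepatic transporter whose loss causes ectopic calcification, stood at 4.87 and 2.02 CPM in DMSO, 16.1 and 12.9 in 3C and 13.4 and 11.004 in 5C. Both cocktails lay above DMSO and overlapped each other. The log2 fold change was 2.05 in 3C (SE 0.38, adjusted p = 0.00796) and 1.85 in 5C (SE 0.38, adjusted p = 0.0107, and 0.0632 without 5C replicate 1). Abcc12 was near the floor, at 0.208 and 0.258 CPM in DMSO, 0.74 and 0.748 in 3C and 1.25 and 0.794 in 5C. Its calls, at log2 fold changes of 1.63 in 3C (SE 0.52, adjusted p = 0.0496) and 2.13 in 5C (SE 0.52, adjusted p = 0.014), were the least firm: that in 3C was lost without any 1 of the 6 libraries (adjusted p from 0.0614 to 0.156), and that in 5C without DMSO replicate 1 (0.058) or 5C replicate 1 (0.0956).

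Abcc1, an exporter of glutathione conjugates found in most cell types, stood at 93.3 and 94.4 CPM in DMSO, 68.98 and 77.6 in 3C and 68.2 and 70.2 in 5C. It fell by 0.39 in 3C (SE 0.08, adjusted p = 0.0059, and 0.0884 without 3C replicate 1) and by 0.42 in 5C (SE 0.08, adjusted p = 0.00335). Abcc5, another exporter of cyclic nucleotides, stood at 157 and 126, 140 and 141, and 111 and 92.2 CPM in the same order. It fell by 0.46 in 5C against DMSO (SE 0.11, adjusted p = 0.0128) and by 0.42 against 3C (SE 0.11, adjusted p = 0.0397), where the first value no longer passed without DMSO replicate 1 (0.0645) or 5C replicate 2 (0.0863) and the second without 3C replicate 1 (0.172), 3C replicate 2 (0.176) or 5C replicate 2 (0.218). Abcc10 stood between 16.4 and 22.8 CPM in all libraries and passed in no comparison.

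Abcc8 and Abcc9 encode the sulfonylurea receptors, the regulatory subunits of ATP-sensitive potassium channels, and do not transport a substrate. Abcc9 stood at 3.35 and 2.43 CPM in DMSO, 9.47 and 10.2 in 3C and 2.77 and 5.13 in 5C. The 3C libraries lay above all others, and 5C overlapped DMSO. It rose by 1.73 in 3C against DMSO (SE 0.31, adjusted p = 0.00317) and was lower by 1.26 in 5C against 3C (a log2 fold change of -1.26, SE 0.30, adjusted p = 0.0267, and 0.102, 0.132 or 0.107 without 3C replicate 1, 3C replicate 2 or 5C replicate 1). Abcc8 had 28 and 49 estimated counts in 3C, 7 and 24 in DMSO and 0 in both 5C libraries. Against the floor of 12 counts per library it was at least 3.28-fold lower in 5C than in 3C. No such bound is given against DMSO, where replicate 1, at 7 counts, was itself under the floor. Both calls were lost when either 5C library was left out. The call against 3C was also lost without 3C replicate 1 (0.0504) or 3C replicate 2 (0.101), and that against DMSO without DMSO replicate 2 (0.0638). Abcc9 is known as a gene of mural cells and mesenchyme, and the markers of stellate cells and fibroblasts listed above also differed between groups; their part was not tested.

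**Figure D3:**
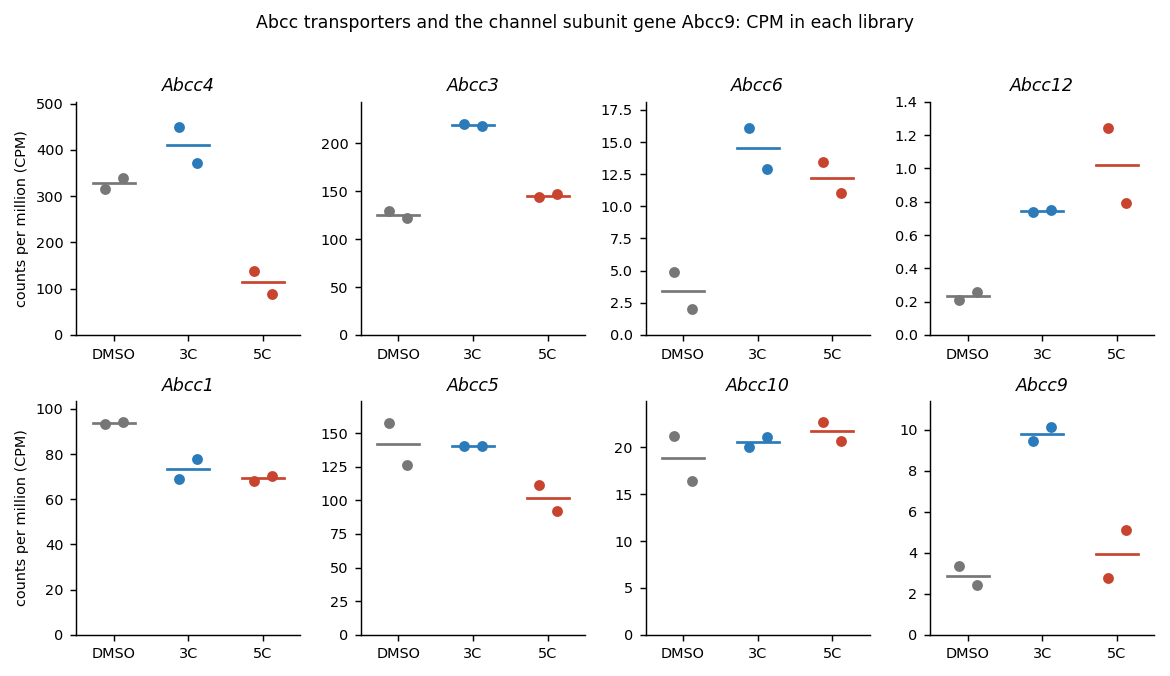
CPM (linear axis from 0) of 7 Abcc exporters and of the channel subunit gene Abcc9 in each library of DMSO, 3C and 5C; points are libraries and horizontal lines are means of 2 libraries. Abcc4 is at 139 and 88.7 CPM in 5C, below all other libraries, and Abcc3 and Abcc9 are highest in 3C.

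Of the 4 sterol efflux genes, 2 passed lower in 5C against DMSO (13.1% of all genes) and 1 in 3C (11.8%), none passed higher, none passed between 5C and 3C, and none was called. The medians of their log2 fold changes were -0.49, -0.35 and 0.0078, beside 0.0041, 0.0088 and -0.011 over all genes. Abcg1, which moves cholesterol to high-density lipoprotein, stood at 36.6 and 33.0 CPM in DMSO, 18.04 and 19.3 in 3C and 17.2 and 20.2 in 5C. It fell by 0.93 in 3C (SE 0.12, adjusted p = 0.00047) and by 0.88 in 5C (SE 0.12, adjusted p = 0.000527), and the cocktails overlapped each other. Abca7, a lipid exporter linked to phagocytosis, stood at 83.5 and 66.6, 68.2 and 59.2, and 56.0 and 47.4 CPM in the same order and fell by 0.52 in 5C against DMSO (SE 0.12, adjusted p = 0.0114, and 0.0663 without DMSO replicate 1 or 0.0858 without 5C replicate 2). Both genes are also known from macrophages, whose markers fell from over 12441 CPM in DMSO to under 4265 CPM in the cocktails; their part in these falls was not tested.

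Abca1, which loads cholesterol and phospholipid onto apolipoprotein A-I, stood at 210 and 159 CPM in DMSO, 176 and 168 in 3C and 192 and 201 in 5C. The DMSO libraries enclosed all others, and the largest of the 3 log2 fold changes was 0.24 (5C against 3C, SE 0.11, adjusted p = 0.234). Leaving out DMSO replicate 1 gave 0.32 in 5C against DMSO (adjusted p = 0.0231), and leaving out DMSO replicate 2 gave -0.30 in 3C against DMSO (adjusted p = 0.0255). The difference between 5C and 3C passed without either DMSO library (adjusted p = 0.0405 and 0.0441) and in a fit to those groups alone (0.0385). Abcg4 stood at 0.145 to 0.334 CPM, near the floor, and no difference was detectable at this depth. Of 11 genes that work with these exporters, 2 were called higher and none lower in 5C (7.3% and 4.42% of all genes), and 2 higher and 1 lower in 3C (5.83% and 3.62%). In 5C against DMSO, 4 of them passed higher and 4 lower (15.6% and 13.1% of all genes). Apoa1, the lipid acceptor of Abca1, stood at 112 and 89.3 CPM in DMSO, 831 and 920 in 3C and 1147 and 1644 in 5C, so that it rose while Abca1 did not pass. Lcat, which esterifies the cholesterol taken up by these particles, stood at 3.23 and 1.11, 11.4 and 11.1, and 26.7 and 34.7 CPM. Pltp, which transfers phospholipid between lipoproteins, stood at 181 and 183, 83.3 and 101, and 88.6 and 116 CPM.

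In peroxisomes, Abcd3 passed higher and Abcd2 was called lower in both cocktails against DMSO, and neither passed between 5C and 3C. Abcd3, which brings branched-chain acyl-CoA and bile acid precursors into the peroxisome, stood at 91.6 and 87.5 CPM in DMSO, 140 and 139 in 3C and 138 and 143 in 5C. Every cocktail library lay above both DMSO libraries. It rose by 0.61 in 3C (SE 0.06, adjusted p = 0.000159) and by 0.67 in 5C (SE 0.06, adjusted p = 6.65e-05).

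Abcd2, a transporter of very long-chain and polyunsaturated acyl-CoA, stood at 26.5 and 21.6 CPM in DMSO, 7.28 and 7.46 in 3C and 6.501 and 10.6 in 5C. Both cocktails lay below DMSO, and they overlapped each other. The log2 fold change was -1.74 in 3C (SE 0.23, adjusted p = 0.000674) and -1.46 in 5C (SE 0.23, adjusted p = 0.00141). Of 10 other peroxisomal genes, 4 were called higher in each cocktail (7.3% of all genes in 5C and 5.83% in 3C) and none lower. Slc27a2, an acyl-CoA synthetase for very long chains, stood at 12.8 and 9.30, 90.5 and 90.4, and 109 and 133 CPM in DMSO, 3C and 5C. Macrophage markers fell in the cocktails as Abcd2 did, and their part was not tested.

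The members Abca8b, Abca8a, Abca9, Abca6 and Abca5, lie next to each other on chromosome 11 between 109823016 and 110228542 on the minus strand. They encode lipid transporters whose substrates are little known. Of these neighbours, 4 passed higher and Abca9 lower in 3C against DMSO (12.7% and 11.8% of all genes). Abca8a stood at 7.74 and 4.48 CPM in DMSO, 24.6 and 21.5 in 3C and 17.5 and 24.4 in 5C, and it was called in both cocktails (1.88 with SE 0.28 and adjusted p = 0.00264 in 3C, 1.80 with SE 0.28 and adjusted p = 0.00278 in 5C). Abca6 stood at 46.0 and 33.9, 96.2 and 90.5, and 54.4 and 71.2 CPM. It was called in 3C (1.19, SE 0.17, adjusted p = 0.00278) and passed in 5C (0.67, SE 0.17, adjusted p = 0.0275, no longer passing without DMSO replicate 2, either 3C library or 5C replicate 2, with adjusted p from 0.0511 to 0.105).

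Abca9, which lies between Abca8a and Abca6, went the other way. It stood at 72.9 and 57.5 CPM in DMSO, 29.8 and 32.8 in 3C and 34.0 and 35.6 in 5C. Every cocktail library lay below both DMSO libraries. It was called in 3C (-1.09, SE 0.12, adjusted p = 0.000159, and -0.92 without DMSO replicate 1) and passed in 5C (-0.88, SE 0.12, adjusted p = 0.000421). Abca5, at the end of the row, stood at 22.6 and 19.3, 39.1 and 35.8, and 20.8 and 24.2 CPM. It rose by 0.81 in 3C (SE 0.12, adjusted p = 0.00124) and fell by 0.68 from 3C to 5C (SE 0.12, adjusted p = 0.0069, and 0.068 without 3C replicate 1). Abca8b stood at 22.4 and 20.2, 35.7 and 37.5, and 27.5 and 38.1 CPM and passed in 3C (0.75, SE 0.15, adjusted p = 0.00657) and in 5C (0.64, SE 0.15, adjusted p = 0.0123, no longer passing without DMSO replicate 2 or 5C replicate 2). Abca8a and Abca8b share 1.86% of 50-base words, so reads could be assigned between them.

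**Figure D4:**
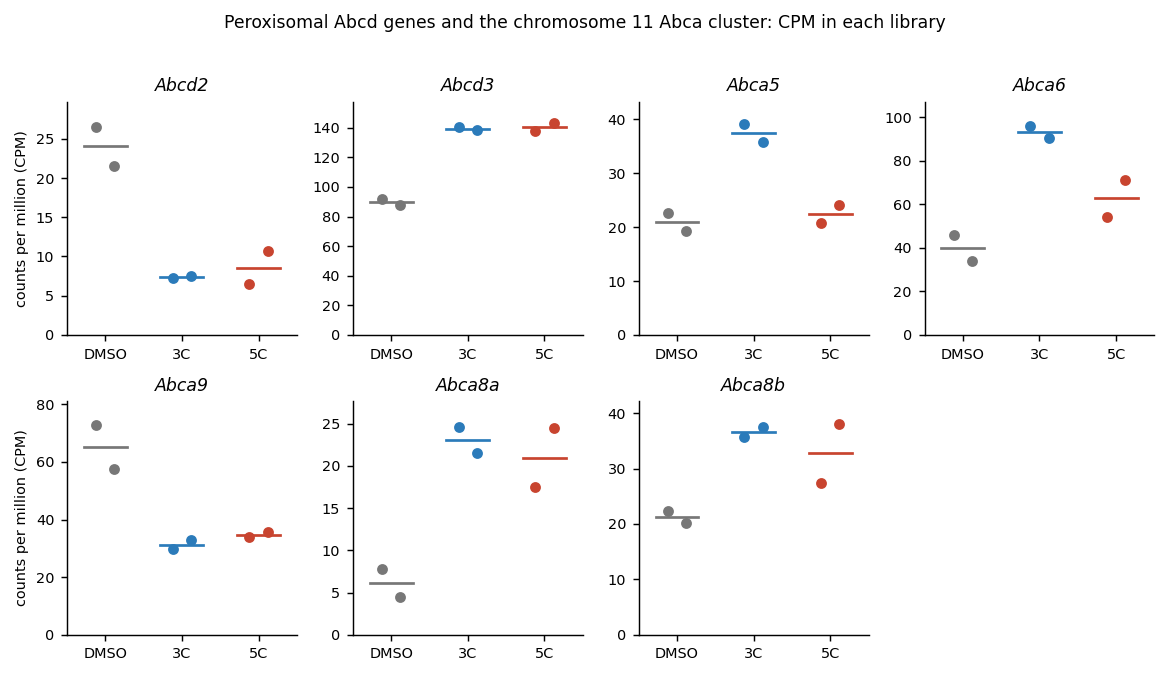
CPM (linear axis from 0) of the peroxisomal Abcd2 and Abcd3 and of 5 neighbouring Abca genes of chromosome 11 in each library of DMSO, 3C and 5C; points are libraries and horizontal lines are means of 2 libraries. Abcd3 is higher and Abcd2 lower in both cocktails than in DMSO, and Abca9 is lower while Abca6, Abca8a and Abca8b are higher.

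Among the 9 remaining Abca members and Abcg3, 4 were not tested. Abca4, known as the retinoid flippase of photoreceptors, stood at 5.99 and 4.35 CPM in DMSO, 8.64 and 8.69 in 3C and 14.3 and 14.5 in 5C. It was called in 5C against DMSO (2.82-fold, adjusted p = 0.000237) and passed in 3C (0.71, SE 0.18, adjusted p = 0.0168) and between 5C and 3C (0.78, SE 0.17, adjusted p = 0.0186). The value in 3C no longer passed without DMSO replicate 2 or either 3C library (adjusted p from 0.0656 to 0.0823), that between 5C and 3C without any 1 of their 4 libraries (from 0.0773 to 0.122), and neither passed on the FPKM scales. Abca12, a lipid transporter of the skin barrier, stood at 1.52 and 1.15, 0.287 and 0.293, and 0.579 and 0.78 CPM. It was called lower in 3C (-2.23, SE 0.48, adjusted p = 0.00835). That call was lost when 3C replicate 1 or 3C replicate 2 was left out. The 3C libraries held 19 and 20 estimated counts of Abca12, close to the floor of 12, so the size of this fall is loosely known. Abcg3, a rodent gene, stood at 8.96 and 11.7, 6.96 and 8.90, and 5.13 and 5.66 CPM and passed lower in 5C against DMSO (-0.92, SE 0.21, adjusted p = 0.0094, and 0.0613 without DMSO replicate 2 or 0.0678 without 5C replicate 1).

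Abca3, the surfactant lipid transporter of lung, had the highest level per length of the Abca subfamily in the mean over all libraries. It stood at 221 and 204 CPM in DMSO, 269 and 253 in 3C and 196 and 193 in 5C. It passed higher in 3C against DMSO (0.26, SE 0.07, adjusted p = 0.0234, no longer passing without DMSO replicate 2 or either 3C library, with adjusted p from 0.073 to 0.221) and lower in 5C against 3C (-0.37, SE 0.07, adjusted p = 0.00855, no longer passing without either 3C library, with 0.118 and 0.0537). Of its exon bases, 10.8% overlap other counted genes. Abca2 (61.5 to 79.2 CPM) and Abca14 (at most 0.453 CPM) passed in no comparison.

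The members of mitochondria, lysosomes and the translation machinery had few differences. The mitochondrial transporters Abcb6, Abcb8 and Abcb10 passed in no comparison. Of the 50-base words of the Abcb6 transcript, 87.5% also occur in another annotated gene, Gm29253, so its counts are uncertain. Abcd4, which passes cobalamin out of lysosomes, stood at 30.2 and 37.4 CPM in DMSO, 22.0 and 23.2 in 3C and 21.2 and 18.7 in 5C. It fell by 0.61 in 3C (SE 0.13, adjusted p = 0.00736, and 0.0652 without 3C replicate 1) and by 0.74 in 5C (SE 0.13, adjusted p = 0.00232). The peptide transporter Abcb9 stood between 3.27 and 6.75 CPM and passed in no comparison. None of the 4 soluble ATPases Abce1, Abcf1, Abcf2 and Abcf3 passed, and their log2 fold changes lay between -0.20 and 0.10 in all 3 comparisons. Abce1, the other member with a cAMP response element in its window, stood at 126 to 133 CPM in all 6 libraries.

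**Figure D5:**
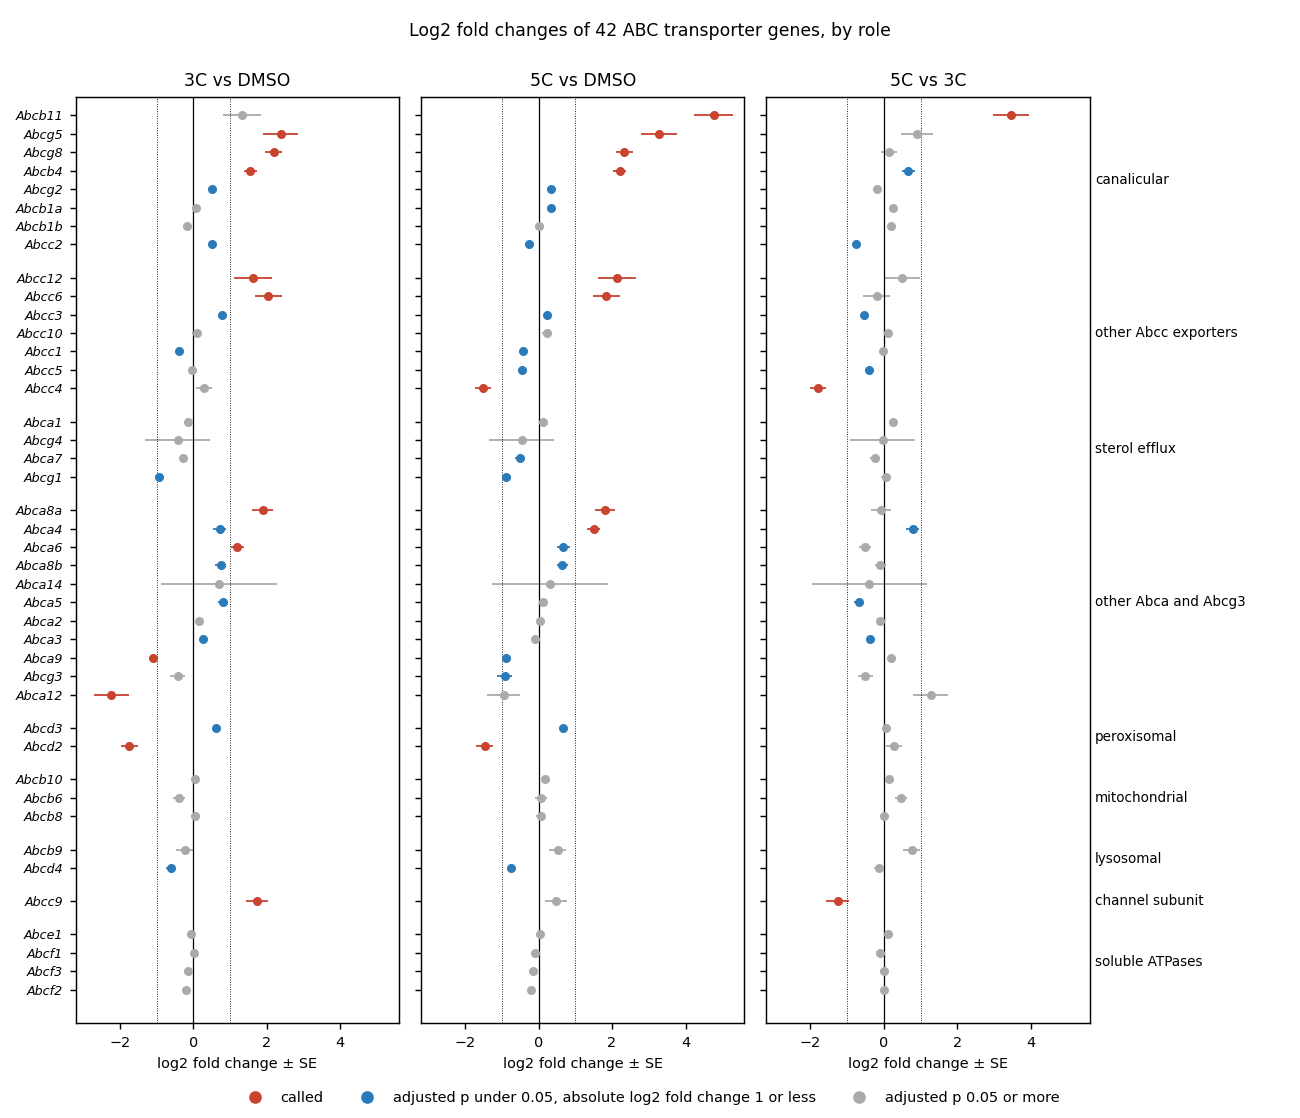
Log2 fold change with its SE (x axes) of 42 ABC transporter genes by role, in 1 panel for each pair of groups; dotted lines stand at 1 and -1, red points are called, blue points pass the adjusted p alone and grey points do not pass. Abcc8 is left out because it is at 0 in 5C; Abcb11 is the called point above 1 between 5C and 3C, and Abcc4 and Abcc9 are the called points below -1.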

How the data were processed

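RNA-seq libraries of dHeps (2 each for DMSO, 3C and 5C) were prepared with a NEBNext Ultra kit, which does not mark strand. The authors deposited estimated counts per gene, whole numbers that are not normalized, and FPKM, scaled for length and depth. The submitters' processing notes name Subread, featureCounts, DESeq2 and GRCm39, without versions. Low counts pile up at 4 and 8, so the fragments per count are unknown; the floor of 3 fragments was set at 12 counts, assuming 4 per fragment. The floor covers counting error only, whereas SDs and SEs also hold the spread between libraries.

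Groups were compared with edgeR 4.0.16, by its quasi-likelihood F test (R 4.3.3; TMM, filterByExpr, all 6 libraries, 3 residual degrees of freedom, Benjamini-Hochberg over 19135 genes). The common biological coefficient of variation was 18.4%. SEs are those implied by F. Adjusted p-values come from this test unless another is named. On simulated data with 200 genes changed by a log2 fold change of 2, 186 to 188 were recovered for 5C against DMSO, with 5 to 14 false calls among 19135 genes. The changed genes were drawn only from those above a minimum mean CPM, so this recovery does not describe genes near the floor.

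The members and gene lists were chosen with earlier results of these data known. Values per library were given for members called in at least 1 comparison and for the canalicular, other Abcc and sterol efflux members; of the other members, those passing were named. Annotation was from GENCODE (GRCm39). Alternatives were other scalings, filters, DESeq2 1.42.0, fits to 2 groups, a replicate block, leaving out each library, and limma 3.58.1 with a pseudocount of 1 or 0.1 on log2 FPKM. Scaling by library totals alone and division of the counts by 4 were added after the data were seen. Results on some genes are not reported here. Figures were drawn with matplotlib.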

Additional observations from a re-analysis of the deposited data

How the results depend on the processing

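The number of members called was 11 in 5C against DMSO, 11 in 3C against DMSO and 4 in 5C against 3C. These counts and those of all genes stayed within 1.5 times under RLE and upper quartile scaling, library totals, both filters, DESeq2, fits to 2 groups and counts divided by 4. With limma on log2(FPKM + 1), whose pseudocount shrinks the folds of low genes by construction, they became 7, 6 and 2 (all genes 1231, 958 and 261), and 6 members passed between 5C and 3C. On log2(FPKM + 0.1), 2 members were called and 4 passed between 5C and 3C; the cause was not tested. With an absolute log2 fold change above 0.5 they became 20, 20 and 9 (all genes 3772, 3146 and 1615). Leaving out 1 library gave 8 to 13, 8 to 10 and 2 to 4 called members, 17 to 23, 16 to 24 and 4 to 13 passing members, and 1923 to 2191, 1535 to 1784 and 381 to 642 called genes, with fewer libraries in each fit.

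Of the 61 passing differences of single members, 27 kept their side of the thresholds under all alternatives run. Over 1032 recomputed values none changed sign, 895 kept their side of the thresholds and 137 no longer did. Among differences that did not pass, 19 of 1245 recomputed values passed, in 11 differences, and 48 changed sign. For 18 values no result could be given because Abca14, Abcc8 or Abcg4 was filtered out.

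Replicate numbers did not pair the libraries: the differences between replicates 1 and 2 correlated across genes at -0.031, 0.00068 and 0.016 between groups. With a replicate block, 11, 10 and 4 members were called and 25, 23 and 10 passed (all genes 2125, 1737 and 536), and 4 differences no longer passed, among them Abca6 in 5C against DMSO, Abcc12 in 3C against DMSO and Abcb4 in 5C against 3C.

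With 2 libraries per group and 3 residual degrees of freedom, a small difference can rest on 1 library. Abcb11, Abcg5, Abcg8, Abcc8 and Abcc12 were low or near the floor in DMSO or 5C, and Abca12 was near it in 3C, which limits the precision of their folds. Counts of Abcb6 and Abcb1a share sequence or exons with other genes.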

Other observations

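Some ABC transporters carry other names. Cftr, the chloride channel of bile duct cells, stood at 1.27 and 2.15 CPM in DMSO, 5.39 and 10.5 in 3C and 3.81 and 4.61 in 5C. It was called higher in 3C (log2 fold change 2.18, SE 0.38, adjusted p = 0.00305 by edgeR) and in 5C (1.32, SE 0.38, adjusted p = 0.0291) against DMSO. Tap1 and Tap2 form the peptide transporter of antigen presentation. Tap1 stood at 29.5 and 41.0, 29.2 and 27.7, and 25.1 and 24.4 CPM and passed lower in 5C against DMSO (-0.49, SE 0.15, adjusted p = 0.0369). Tap2 stood at 53.2 and 53.6, 58.6 and 57.8, and 70.7 and 62.5 CPM and passed higher (0.34, SE 0.08, adjusted p = 0.01), so that the genes of both subunits differed in direction. For Tap1, DMSO replicate 1 (29.5 CPM) lay nearer to the 5C libraries than DMSO replicate 2 (41.0 CPM) did. None of the single genes outside the 50 members, such as Tap1, Tap2, Cftr, Pdzk1, Slc10a1 and Vdr, was checked by leaving out libraries.

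Of 14 genes of nuclear receptors and other regulators known to act on ABC genes, 6 were called higher in 3C against DMSO, 4 in 5C against DMSO and 1 in 5C against 3C (5.83%, 7.3% and 2.16% of all genes), and none was called lower. Nfe2l2 stood at 232 and 249.2 CPM in DMSO, 246 and 257 in 3C and 186 and 182 in 5C and passed lower in 5C against 3C (-0.40, SE 0.07, adjusted p = 0.00741). Nr1h4, which encodes the bile acid receptor FXR, stood at 11.7 and 9.91 CPM in DMSO, 24.8 and 21.9 in 3C and 18.7 and 22.7 in 5C, so that the cocktails overlapped. Nr0b2, a target of FXR, stood at 1.59 and 2.00, 8.56 and 8.27, and 13.0 and 12.3 CPM. Vdr was the regulator called between 5C and 3C, at 3.97 and 5.61 CPM in 3C and 9.95 and 10.4 in 5C (1.14, SE 0.20, adjusted p = 0.00717).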
